A study of Homo sapiens with 6 samples.

Results

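Notch signaling was examined through 10 genes that act beside or below its receptors in HaCaT cells. Of these, *POFUT1*, *POGLUT1*, *LFNG* and *RFNG* encode enzymes that put sugars on Notch receptors, *RBPJ* and *MAML1* encode nuclear partners of the cleaved receptor, *NUMB* encodes an endocytic inhibitor, and *HES1*, *HEY1* and *NRARP* are target genes. They were chosen by symbol for their roles, with earlier results of these data known, and all 10 had a row among the 12499 genes of the deposited table. HaCaT is an immortalized line of human keratinocytes. The cells had been infected for 48 hours with a lentivirus carrying the human *ATF7* coding sequence (LV-*ATF7*) or with its negative control (LV-NC). Each group then spent 24 hours in HG medium, 25 mM glucose, so no library came from cells kept at normal glucose. Poly(A) RNA was sequenced from 3 libraries per group. Whether these came from separate cultures is not stated, so p-values measure only the spread between these libraries.

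Notch receptors are modified while they are made. POFUT1 adds O-fucose to their EGF-like repeats, POGLUT1 adds O-glucose, and the Fringe enzymes LFNG, RFNG and MFNG extend the fucose with N-acetylglucosamine, which changes how a receptor answers Delta-like and Jagged ligands. After a ligand binds, the receptor is cut and its intracellular domain enters the nucleus, where it joins the DNA-binding protein RBPJ and a Mastermind coactivator such as MAML1. Without the intracellular domain, RBPJ sits with corepressors. The transcriptional repressors HES1 and HEY1 and the small feedback inhibitor NRARP are classic products of this complex, and in the epidermis the pathway is known for promoting exit from the basal layer and differentiation.

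Totals ran from 16686472 to 20562768 counts per library. *ATF7* itself was lower in the libraries labeled LV-*ATF7*, at 21.9 to 28.0 CPM against 46.4 to 52.2 CPM in those labeled LV-NC (log2 fold change -0.98, adjusted p = 1.89e-04). It was lower in every fit run, with log2 fold changes from -1.15 to -0.89, and 43.8% of its exon bases also lie in other annotated genes, whose part in this count was not tested. Whether the labels of the groups were exchanged cannot be told from these counts, and an exchange would turn every direction given below. The labels were kept, and each direction is that of the libraries so labeled. LV-NC replicate 1 stood apart: its log2 CPM differed from the mean of LV-NC replicates 2 and 3 by a median of 0.31 over the genes tested, against 0.09 between replicates 2 and 3. All 12 keratinocyte markers checked had a row, including *KRT5*, *KRT14* and *TP63*, and their summed level was 1864 to 2636 CPM in LV-NC and 7637 to 8199.5 CPM in LV-*ATF7*. Of the markers of other cell types, 2 of 7 fibroblast genes had a row (33.1 to 42.7 CPM in LV-NC and 17.3 to 21.7 CPM in LV-*ATF7*), as did 3 of 8 macrophage genes (5.57 to 8.13 and 9.38 to 12.7 CPM), 2 of 6 melanocyte genes (17.5 to 24.8 and 12.2 to 12.995 CPM) and 2 of 5 endothelial genes (1.12 to 5.50 and 84.6 to 89.9 CPM). Those with a row were *COL1A1* and *DCN* of fibroblasts, *CD14*, *CSF1R* and *ITGAM* of macrophages, *PMEL* and *MITF* of melanocytes, and *VWF* and *CDH5* of endothelium. Others, among them *PTPRC*, *PECAM1*, *COL1A2* and *MLANA*, were not analyzed here. The part of these markers in the results below was not tested, and in bulk RNA fewer cells of a type and less RNA per cell cannot be told apart.

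Most of the 10 genes differed between the groups, in both directions. *NRARP*, *POGLUT1*, *RFNG* and *NUMB* rose in the libraries labeled LV-*ATF7*, and *LFNG*, *HEY1*, *RBPJ*, *MAML1* and *POFUT1* fell. In edgeR's quasi-likelihood test, adjusted by Benjamini-Hochberg over all genes, 9 of the 10 had an adjusted p under 0.05. The same test called 67.6% of all genes tested, 34.7% as higher and 32.9% as lower, so a call by itself does not set these genes apart. For these 9 genes the ranges of the groups were also separate, 4 with LV-*ATF7* above and 5 with it below, against 72.7% of all genes tested, 38.0% above and 34.7% below. When a 1.5-fold change was required too, 8 of the 10 passed, against 52.9% of all genes, and *POFUT1*, at 1.38-fold, did not. *NUMB*, at 1.51-fold, lay just inside, and the count was 7 to 9 across the alternatives run. The median absolute log2 fold change was 0.81 over the 10 genes and 0.67 over all genes tested. *HES1*, the remaining gene, was decided by a single library, as described with the target genes.

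**Figure D1:**
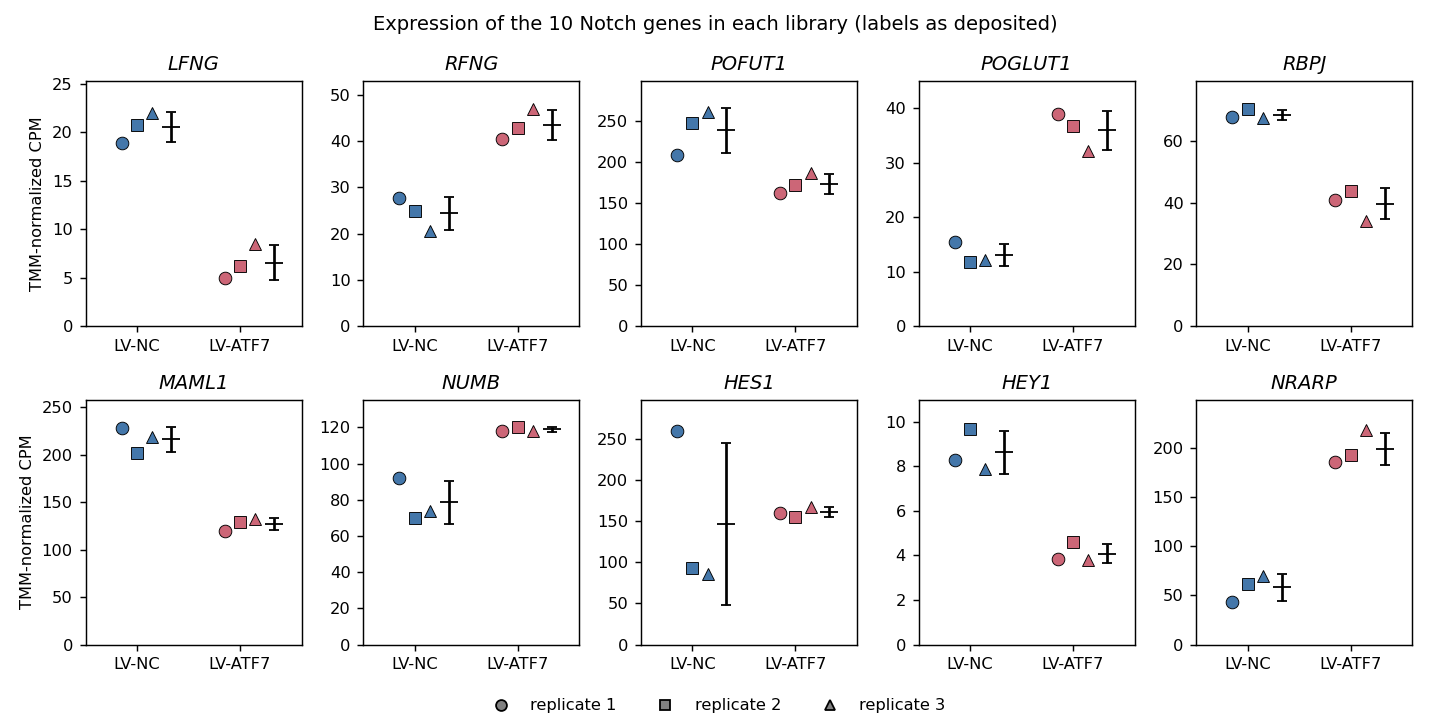
TMM-normalized CPM of the 10 genes in each of the 6 libraries, with one panel per gene, a linear axis from 0 and a marker shape per replicate. Black bars give the mean ± SD (n = 3). The groups are apart in 9 panels, and in the *HES1* panel LV-NC replicate 1 lies at 261 CPM, above every other library.

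*POFUT1* and *POGLUT1*, which start the 2 kinds of sugar chain, moved in opposite directions. *POFUT1* (ENSG00000101346) is a plus-strand gene of chromosome 20 (32207880 to 32238667; GRCh38 positions from GENCODE release 29, here and below). Its level was 208, 247 and 260.2 CPM in LV-NC replicates 1, 2 and 3 and 162, 171 and 186 CPM in LV-*ATF7* replicates 1, 2 and 3. Every LV-*ATF7* library was below every LV-NC library, by a narrow margin. The mean fell from 238 ± 27.4 to 173 ± 12.4 CPM (SD, n = 3 each), a log2 fold change of -0.46 (standard error 0.112, adjusted p = 0.00682). *POGLUT1* (ENSG00000163389) spans 119468938 to 119494708 of chromosome 3, plus strand. It was at 15.4, 11.7 and 12.04 CPM in LV-NC and at 39.0, 36.8 and 32.1 CPM in LV-*ATF7*. The lowest LV-*ATF7* library was thus well above the highest LV-NC library. *POGLUT1* rose 2.75-fold, from 13.05 ± 2.01 to 35.9 ± 3.54 CPM (SD, n = 3 each), with a log2 fold change of 1.46 (standard error 0.148, adjusted p = 7.04e-05).

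The Fringe genes *LFNG* and *RFNG* moved in opposite directions. *LFNG* (ENSG00000106003), on chromosome 7 (2512529 to 2529177, plus strand), was at 18.9, 20.8 and 22.0 CPM in LV-NC. It was at 4.97, 6.22 and 8.46 CPM in LV-*ATF7*, far below every LV-NC library. *LFNG* fell 3.14-fold, with a log2 fold change of -1.65 ± 0.202 (SE, adjusted p = 1.90e-04). *RFNG* (ENSG00000169733), on chromosome 17 (82047902 to 82051831, minus strand), was at 27.6, 24.8 and 20.7 CPM in LV-NC and at 40.5, 42.9 and 46.9 CPM in LV-*ATF7*. All 3 LV-*ATF7* libraries were higher, by a log2 fold change of 0.83 ± 0.132 (SE, adjusted p = 7.46e-04). Of the *RFNG* exon bases, 21.6% lie in *GPS1*, a COP9 signalosome subunit gene on the opposite strand, and whether the authors counted by strand is not stated. *GPS1* was at 109, 166 and 166 CPM in LV-NC and at 107, 112 and 133 CPM in LV-*ATF7* (log2 fold change -0.33, adjusted p = 0.125), and it was called lower in LV-*ATF7* without LV-NC replicate 1 (log2 fold change -0.53, adjusted p = 1.51e-06).

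Set against each other per length, *LFNG* and *RFNG* were near parity in LV-NC and unequal in LV-*ATF7*. Of the reads per kilobase of the pair, *LFNG* made up 43.6%, 48.6% and 54.6% in the LV-NC libraries and 12.2%, 14.1% and 16.9% in the LV-*ATF7* libraries. The log2 ratio of *LFNG* to *RFNG* in CPM was lower by 2.52 in LV-*ATF7*, a 5.75-fold difference in the ratio. Every LV-*ATF7* ratio lay below every LV-NC ratio, and a two-sided exact permutation test gave p = 0.10, which is as low as 3 libraries against 3 can go. *MFNG*, which encodes the other Fringe enzyme, was low in each group, at 5.22 ± 0.578 CPM in LV-NC and 6.59 ± 1.37 CPM in LV-*ATF7* (SD, n = 3 each), and its log2 fold change was 0.34 (adjusted p = 0.174). Without LV-NC replicate 1, *MFNG* was called higher in LV-*ATF7* (log2 fold change 0.40, adjusted p = 0.0496).

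**Figure D2:**
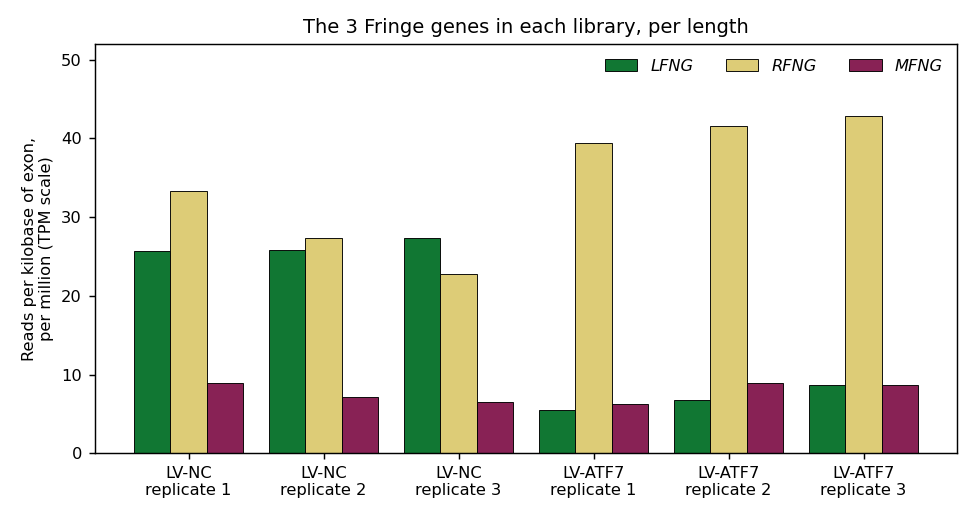
Length-scaled levels on the TPM scale for *LFNG*, *RFNG* and *MFNG* in each library, with each exon base counted once and 1 bar per library. *LFNG* lies between 25.7 and 27.4 in LV-NC and between 5.47 and 8.74 in LV-*ATF7*, where *RFNG* reaches 39.5 to 42.8.

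*RBPJ* and *MAML1*, which encode the DNA-binding protein and a coactivator of the nuclear complex, fell by similar amounts. *RBPJ* (ENSG00000168214), on chromosome 4 (26163455 to 26435131, plus strand), was at 67.9, 70.5 and 67.6 CPM in LV-NC and at 41.1, 43.8 and 34.1 CPM in LV-*ATF7*. The LV-NC libraries were tightly grouped, and all LV-*ATF7* libraries lay below them. *RBPJ* fell 1.73-fold, with a log2 fold change of -0.79 ± 0.113 (SE, adjusted p = 4.35e-04). GENCODE lists 4 pseudogenes of *RBPJ*, and how reads that match such copies were counted is not stated. *MAML1* (ENSG00000161021), on chromosome 5 (179732850 to 179777286, plus strand), was at 228, 202 and 218 CPM in LV-NC and at 119, 129.5 and 132 CPM in LV-*ATF7*. Again no library of one group reached the other. *MAML1* fell from 216 ± 13.1 to 127 ± 6.72 CPM (SD, n = 3 each), with a log2 fold change of -0.77 (standard error 0.0905, adjusted p = 1.54e-04).

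*NUMB*, whose product removes Notch receptors from the cell surface, rose. The gene (ENSG00000133961) spans 73275107 to 73458617 of chromosome 14, minus strand. It was at 92.3, 69.7 and 73.9 CPM in LV-NC and at 118, 120.5 and 118 CPM in LV-*ATF7*. The LV-*ATF7* libraries were nearly equal, and LV-NC replicate 1 was the nearest LV-NC library to them. *NUMB* rose 1.51-fold (log2 fold change 0.60, standard error 0.119, adjusted p = 0.00251).

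Among the target genes, *NRARP* and *HEY1* moved in opposite directions. *NRARP* (ENSG00000198435) spans 137300482 to 137302251 of chromosome 9, minus strand, and its product binds the Notch intracellular domain complex and limits it. Its level was 42.9, 62.1 and 70.0 CPM in LV-NC and 186, 193 and 218 CPM in LV-*ATF7*. LV-NC replicate 1 was the lowest library, and the groups were far apart. *NRARP* rose 3.41-fold, from 58.3 ± 13.9 to 199 ± 16.8 CPM (SD, n = 3 each), with a log2 fold change of 1.77 (standard error 0.177, adjusted p = 6.67e-05). *HEY1* (ENSG00000164683), a minus-strand gene of chromosome 8, had the lowest mean count of the 10. There were 136 to 185 counts in the LV-NC libraries and 69 to 90 in the LV-*ATF7* libraries, or 8.30, 9.70 and 7.87 CPM against 3.85, 4.59 and 3.82 CPM. Each LV-*ATF7* library was below each LV-NC library, and *HEY1* fell 2.11-fold (log2 fold change -1.08 ± 0.169, SE, adjusted p = 7.15e-04).

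*HES1* (ENSG00000114315) was the one gene whose result turned on a library. It spans 194136145 to 194138732 of chromosome 3, plus strand. Its level was 261, 93.4 and 86.3 CPM in LV-NC replicates 1, 2 and 3, from 4868, 1781 and 1490 counts, and 160.5, 155 and 167 CPM in LV-*ATF7* replicates 1, 2 and 3. The LV-*ATF7* libraries were close together, LV-NC replicates 2 and 3 lay below them, and LV-NC replicate 1 lay above them. With all libraries, the log2 fold change was 0.13 (95% interval -0.76 to 1.03, adjusted p = 0.776), an interval wide enough to hold a change in either direction. Without LV-NC replicate 1, *HES1* was higher in LV-*ATF7* by 0.82 on the log2 scale (95% interval 0.66 to 0.98, adjusted p = 3.72e-10), and all 10 genes were then called, 5 higher and 5 lower. In that fit 80.1% of all genes tested were called, 39.9% higher and 40.2% lower, and 56.5% were called with a 1.5-fold change. Without LV-NC replicate 2 or 3, the log2 fold change was -0.15 or -0.19.

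The gap between LV-NC replicate 1 and the other LV-NC libraries was 1.54 on the log2 scale for *HES1*, a 2.90-fold difference, while replicates 2 and 3 differed by 0.11. Of all genes tested, 3.04% had a gap as large. Among the other 9 genes the next largest was that of *NRARP*, which was lower in replicate 1 by 0.62 on the log2 scale, and 21.4% of all genes had a gap at least that large. *HES1* and *NRARP*, both targets of the pathway, thus stood on opposite sides of replicates 2 and 3 in this library. *HEY1* (-0.07) and *RBPJ* (-0.02) were near the other LV-NC libraries, as were *NOTCH1* (0.03) and *NOTCH3* (-0.06). Without LV-NC replicate 1, each of the other 9 genes kept its direction and its call, with *NRARP* at 1.57 and *LFNG* at -1.73 on the log2 scale.

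**Figure D3:**
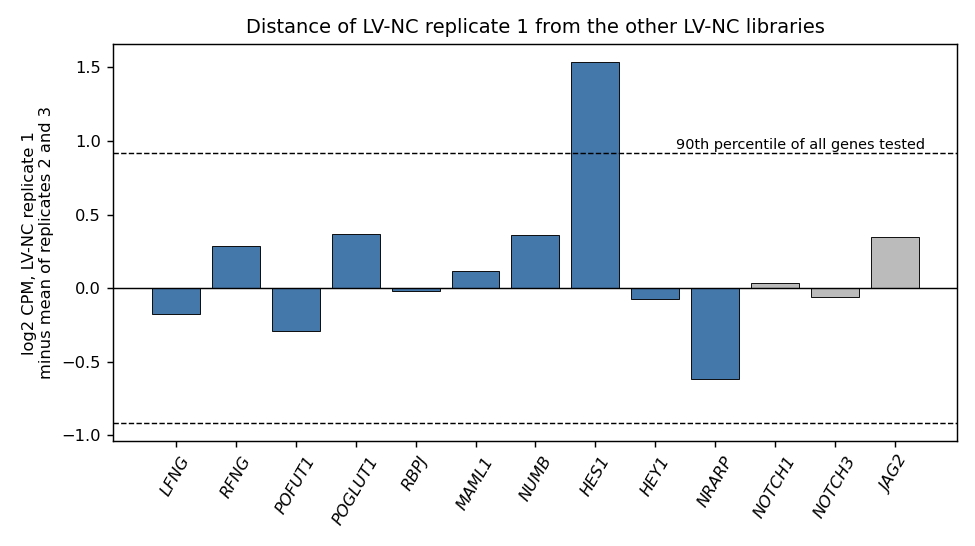
Difference in log2 CPM between LV-NC replicate 1 and the mean of LV-NC replicates 2 and 3, for the 10 genes (blue) and for *NOTCH1*, *NOTCH3* and *JAG2* (grey). Dashed lines mark 0.92 in either direction, the 90th percentile of the absolute gap over all genes tested, which *HES1* alone passes among the genes shown.

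**Figure D4:**
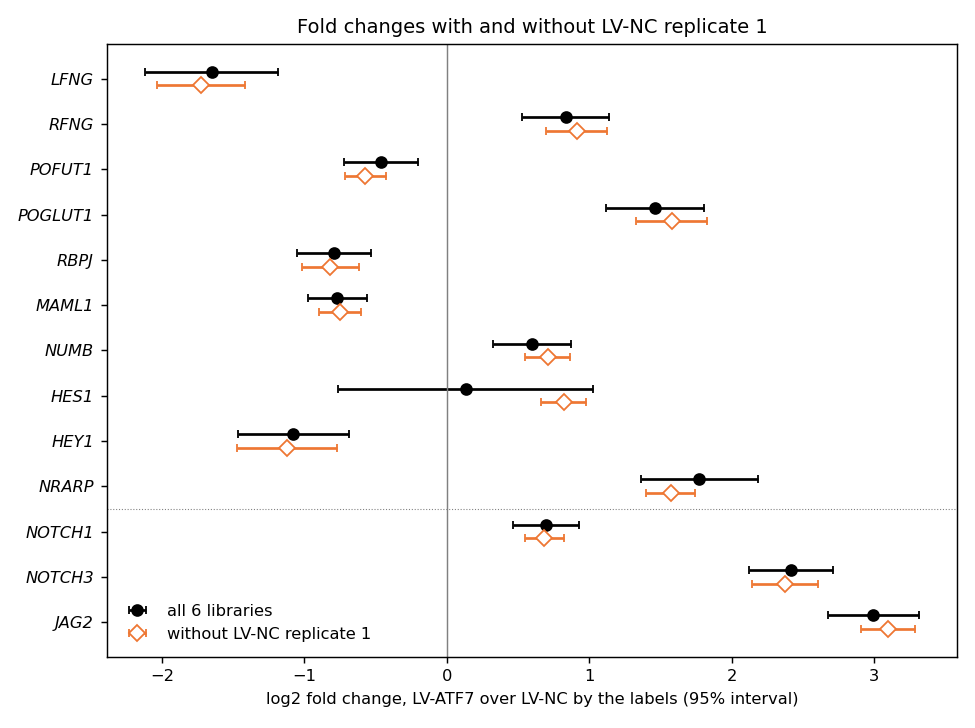
Fitted log2 fold changes (positive where LV-*ATF7* is higher) and their 95% intervals, from all 6 libraries (black circles) and without LV-NC replicate 1 (open orange diamonds). The interval of *HES1* covers 0 with all libraries and lies from 0.66 to 0.98 without that library, while the other genes keep their side of 0.

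The *HES1* promoter is shown because *HES1* is the gene whose result turned on a library and its promoter held more than one match to the letters that RBPJ is known to bind. RefSeq promoter sequences on GRCh38.p14 were found for 9 of the 10 genes (all but *HEY1*) in 14 windows, each covering the 250 bases before a transcription start. Those core letters, TGGGAA, were searched on both strands (TTCCCA on the other strand). They were found in 4 of the 14 windows, belonging to *HES1*, *RBPJ*, *POGLUT1* and *LFNG*, and in 20.8% of all 35116 promoter windows of the same length. The windows of *HES1* and of 1 of the *RBPJ* starts held 2 matches each, as did 2.90% of all windows. The plus strand of chr3:194135938-194136137, from 210 to 11 bases before the *HES1* start, is given with the matches in capitals.
HES1 promoter: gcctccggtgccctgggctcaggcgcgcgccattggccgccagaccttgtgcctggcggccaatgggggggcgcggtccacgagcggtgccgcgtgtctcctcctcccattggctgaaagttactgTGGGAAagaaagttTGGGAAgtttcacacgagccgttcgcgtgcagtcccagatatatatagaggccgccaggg
The *HES1* matches begin 84 and 70 bases before the start and face the same way. Letters without the TGGGAA core were not searched, so the capitals need not mark the sites that RBPJ uses in this promoter. The *RBPJ* matches, at chr4:26319619-26319648 and chr4:26319662-26319691 on the plus strand, begin 115 and 72 bases before one of its starts and face opposite ways. They are shown beside the *POGLUT1* match at chr3:119468760-119468789 (plus strand), 191 bases before its start, since those genes moved in opposite directions.
RBPJ first match: ggtttaggaaatTTCCCAcggccgtgttgt
RBPJ second match: agtggaaggcggTGGGAAggaggtgtagcg
POGLUT1 match: tgcagacctattTTCCCAggggtgccaggg
The remaining match lay 248 bases before one of the *LFNG* starts. The longer form GTGGGAA, on either strand, was in 5.43% of all windows. The 2 *RBPJ* matches and the first *HES1* match have this form. The second *HES1* match and those of *POGLUT1* and *LFNG* do not. No match was found in the windows of *NRARP*, *NOTCH1*, *NOTCH3* and *JAG2*. A match is a description of letters and not evidence of binding.

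As context, the receptors *NOTCH1* and *NOTCH3* and the ligand gene *JAG2* all rose. *NOTCH1* was at 662, 612 and 683 CPM in LV-NC and at 1013, 1027 and 1129 CPM in LV-*ATF7*. *NOTCH3* was at 11.8, 10.9 and 14.0 CPM against 63.1, 61.6 and 71.0 CPM, and *JAG2* at 39.1, 32.1 and 29.3 CPM against 253, 251 and 296 CPM. None of the 3 overlapped between groups, but neither did 72.7% of all genes tested, 38.0% with LV-*ATF7* above. The log2 fold changes were 0.70, 2.42 and 2.99 (adjusted p = 4.51e-04, 3.65e-06 and 2.11e-06). The receptor gene *NOTCH2* fell, from 259 ± 34.7 to 111 ± 3.20 CPM (mean ± SD, n = 3), with a log2 fold change of -1.22 (adjusted p = 4.36e-05). Over the same libraries, the nuclear genes *RBPJ* and *MAML1* fell, and of the 3 target genes *NRARP* rose, *HEY1* fell and *HES1* was not called. Transcript levels do not measure receptor cleavage or the intracellular domain.

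Levels of different genes were compared per length, on the TPM scale, with each exon base counted once. In LV-NC, *HES1* was highest at 319.8 ± 233, followed by *POFUT1* at 162 ± 11.03, *MAML1* at 159.8 ± 17.2 and *NRARP* at 143 ± 28.1 (SD, n = 3 each). *POFUT1* overlapped *MAML1* in range and *MAML1* overlapped *NRARP*. The lowest *HES1* library, at 178, lay just below the highest *MAML1* library, at 179. *NUMB* (36.4), *RBPJ* (32.6), *RFNG* (27.8) and *LFNG* (26.3) followed, each overlapping the next, and *HEY1* (11.7) and *POGLUT1* (8.11) were lowest. In LV-*ATF7* the order was *NRARP* at 413 ± 19.8, *HES1* at 287 ± 5.53, *POFUT1* at 99.0 ± 3.93, *MAML1* at 78.5 ± 3.12, *NUMB* at 45.9 ± 1.93 and *RFNG* at 41.3 ± 1.69. *POGLUT1* (18.7) and *RBPJ* (15.8) overlapped in range, and *LFNG* (7.01) and *HEY1* (4.66) were lowest. *NRARP* thus went from rank 4 to rank 1 and *LFNG* from rank 8 to rank 9. The deposited FPKM values are scaled otherwise, and how is not stated. Lengths back-computed from counts, FPKM and column totals were 9.32 times the exon length for *RBPJ* and 11.1 times for *HEY1*. For *HEY1* this exceeds the span of the gene, so these values need not be the lengths that the authors used. FPKM placed *RBPJ* at rank 9 in each group. By FPKM, *NRARP* went from rank 3 to rank 1 and *LFNG* from rank 5 to rank 8, so the ranks depend on the scale used.

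The other genes of the pathway were taken from lists of 94 symbols, older names included, of which 83 had a row and were tested. Of these 83, 37 rose and 25 fell, or 74.7% called against 67.6% of all genes tested, with a median log2 fold change of 0.32 against 0.00. Without LV-NC replicate 1, 73 of the 83 were called, against 80.1% of all genes. Each list held genes that rose and genes that fell.

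Among 15 other genes listed for Notch sugar addition and sugar nucleotide supply, 5 rose and 6 fell. The list was broad. It held *OGT*, called higher, and *POFUT2*, called lower, whose products are not established enzymes of Notch EGF-like repeats. The largest changes were falls of *POGLUT2* (log2 fold change -2.60, adjusted p = 2.83e-06), which encodes another protein O-glucosyltransferase, and of *GXYLT1* (-2.38, adjusted p = 4.52e-06), whose product adds xylose to the O-glucose that POGLUT1 places. *POGLUT3* rose from 6.09 to 15.5 CPM in the mean (log2 fold change 1.35, adjusted p = 0.00143). *POGLUT1* and *POGLUT3* therefore rose while *POGLUT2* fell from 75.0 ± 9.41 to 12.3 ± 0.939 CPM (SD, n = 3 each).

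Of 9 other coactivator genes, 4 rose and 3 fell. The 2 relatives of *MAML1* went the other way from it. *MAML2* rose from 9.50 ± 4.67 to 52.6 ± 3.92 CPM (mean ± SD, n = 3), with a log2 fold change of 2.47 (adjusted p = 1.70e-04). *MAML3* rose from 2.57 ± 1.77 to 15.5 ± 1.80 CPM (log2 fold change 2.58, adjusted p = 6.44e-04), and by 3.30 on the log2 scale without LV-NC replicate 1. The acetyltransferase gene *KAT2A* rose as well (log2 fold change 1.55, adjusted p = 8.79e-05).

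Of 17 corepressor genes, 8 rose and 6 fell. *TLE2*, a Groucho-family corepressor gene, rose from 3.37, 1.21 and 1.04 CPM in LV-NC to 51.6, 55.5 and 62.5 CPM in LV-*ATF7* (log2 fold change 4.90, adjusted p = 1.70e-05), and by 5.62 without LV-NC replicate 1. *L3MBTL3*, whose product binds RBPJ, rose too (log2 fold change 2.17, adjusted p = 1.29e-05). *SAP30*, a subunit gene of the Sin3 histone deacetylase complex, fell by 1.81 on the log2 scale (adjusted p = 4.30e-05).

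Of 19 genes of receptor and ligand turnover, 7 rose and 6 fell. The largest changes were rises of the ubiquitin ligase genes *NEURL1B* (log2 fold change 3.98, adjusted p = 2.44e-06), *DTX4* (3.05, adjusted p = 6.13e-06) and *NEDD4* (2.41, adjusted p = 3.63e-05). Of 15 other genes listed as targets, 9 rose and 2 fell, with a median log2 fold change of 0.73. Of all genes tested, 34.7% were called higher and 32.9% lower. Whether Notch controls the listed genes in HaCaT cells was not tested. *HES4* rose from 17.3 ± 1.38 to 91.4 ± 4.96 CPM (mean ± SD, n = 3; adjusted p = 1.74e-06) and *HES2* from 20.9 ± 7.15 to 147 ± 7.77 CPM (adjusted p = 3.20e-05), both of the same repressor family as *HES1*. *IL7R*, a Notch target of lymphocytes, rose from 1.26 to 10.5 CPM in the mean (log2 fold change 3.06, adjusted p = 2.44e-04). Of 8 receptor and ligand genes, *NOTCH1*, *NOTCH3* and *JAG2* among them, 4 rose and 2 fell. *DLL4* had the largest change, at -3.74 (adjusted p = 3.94e-05), from 128, 178 and 120 counts in LV-NC to 7, 18 and 7 counts in LV-*ATF7*. The size of that change therefore rests on few reads. *NOTCH2* was the other gene that fell.

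**Figure D5:**
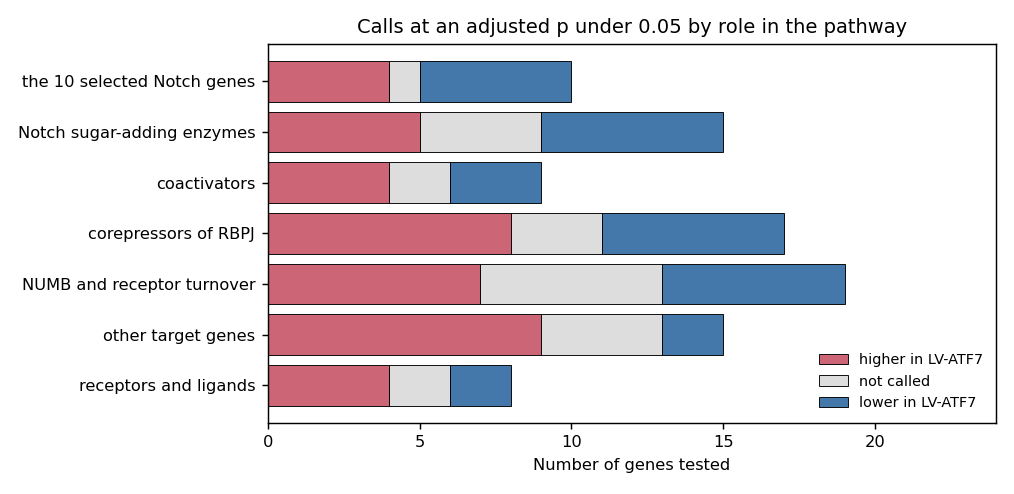
Number of genes tested in each role that were higher in LV-*ATF7*, not called, or lower in LV-*ATF7* by the labels, at an adjusted p under 0.05. The 10 genes divide into 4 higher, 5 lower and 1 not called, and the list of other target genes into 9 higher, 2 lower and 4 not called. Of all genes tested, 34.7% were called higher and 32.9% lower.

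Across the 6 libraries, the pattern of each of the 10 genes was compared with those of 92 others, the remaining 9 and the 83 of the lists, by Pearson's r of log2 CPM. The points fall into 2 groups, so a high r follows from any large difference between them. The closest gene was *KAT2A* for *NRARP* and *NEDD4* for *POGLUT1* (r = 0.999 each), *MAML3* for *NUMB* (0.998), *TLE1* for *MAML1* (0.995), *DLL4* for *HEY1* (0.995), *SLC35C2* for *LFNG* (0.992), *NUMBL* for *POFUT1* (0.989), *FCSK* for *RFNG* (0.988) and *EPS15* for *RBPJ* (0.983). *HES1* had the weakest best match, at r = 0.929 with *GXYLT2*. *GXYLT2* was likewise highest in LV-NC replicate 1, at 2.78 CPM against 1.21 and 1.45 CPM in replicates 2 and 3.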

How the data were processed

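RNA-seq of HaCaT cells was taken as deposited. Gene-level raw read counts and FPKM values, 1 column per library, are as the authors deposited them. Per the labels, the submitters' processing notes name GRCh38; the aligner, the counter, the annotation and strandedness are not given in the sources used here. The deposited table also holds fold changes and p-values of the authors' own comparison, which were not used. Summed over the 6 libraries, the lowest total of any gene in the table was 51 counts, and genes with a lower total were not analyzed here.

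The edgeR package (4.0.16, in R 4.3.3) gave TMM scaling and the quasi-likelihood test (glmQLFit, glmQLFTest), run over the 12462 of 12499 genes that passed filterByExpr, with Benjamini-Hochberg adjustment and no replicate block. All 10 genes passed the filter. CPM is TMM-normalized, and log2 CPM used a prior count of 2. The standard error is the log2 fold change divided by the square root of F. DESeq2 1.42.0, limma 3.58.1 voom, other scalings and filters, and each library left out were alternatives. The code was tested on simulated counts. Counting error is small at these depths except for genes of few counts such as *HEY1* and *DLL4*.

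Positions and exon lengths came from GENCODE release 29 (12485 genes matched by identifier), and the deposited FPKM served only as an alternative scale. Promoters are RefSeq sequences on GRCh38.p14. Python 3.11.15 was used. The genes and lists were chosen with earlier results of these data known. Genes named beyond the 10 were *NOTCH1*, *NOTCH3*, *JAG2*, *ATF7*, up to 3 per pathway list with the largest change (adjusted p under 0.05, mean of at least 50 counts) and the closest match of each gene. *MFNG*, *GPS1*, *NOTCH2*, *OGT*, *POFUT2*, *CDKN1A*, *MYC*, *CCND1*, *HES6*, *TLE3* and *TLE4* were added after their values were seen.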

Additional observations from a re-analysis of the deposited data

How the results depend on the processing

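*POFUT1*, *POGLUT1*, *LFNG*, *RFNG*, *RBPJ*, *MAML1*, *NUMB*, *HEY1* and *NRARP*, with *NOTCH1*, *NOTCH3* and *JAG2*, did not change direction or lose their call in any of 13 alternative fits. These gave 156 results, 1 per gene and fit (adjusted p at most 0.036), all drawn from the same 6 libraries. *HES1* was the exception. Its log2 fold change was -0.053 with library size only, 0.78 with limma voom and sample quality weights (adjusted p = 5.66e-08), and -0.19 to 0.82 when single libraries were left out in turn (6 fits), the highest being without LV-NC replicate 1. Its adjusted p ranged from 3.72e-10 to 0.917, and the cause was not tested. Library size only moved the all-gene median by -0.16 on the log2 scale and made 42.4% of the calls higher, against 51.3%. With deposited FPKM, whose scaling per gene differs, the *LFNG* share of *LFNG* and *RFNG* was 56.6% in LV-NC and 18.7% in LV-*ATF7*, against 49.0% and 14.4%. Libraries that share a replicate number did not deviate together (correlations of deviations 0.058, -0.021 and 0.065). The library names of the LV-NC group skip a number, so a shared replicate number need not mark a pair. In a fit with a replicate block, 9 of the 10 genes were called, *HES1* was at 0.33 (adjusted p = 0.369), and 8210 genes were called in all against 8429.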

Other observations

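Further genes of the pathway lists are given as values, and those outside the naming rule were named after their values were seen. *CDKN1A*, which encodes the cell cycle inhibitor p21 and is a known Notch target in keratinocytes, averaged 842 ± 17.1 CPM in LV-NC and 163 ± 15.7 CPM in LV-*ATF7* (SD, n = 3), a fall with a log2 fold change of -2.37 (adjusted p = 1.89e-06). *MYC* rose from 172 ± 32.8 to 799 ± 10.01 CPM (log2 fold change 2.22, adjusted p = 8.27e-06) and *CCND1*, a G1 cyclin gene, from 165 ± 8.55 to 508 ± 6.55 CPM (log2 fold change 1.62, adjusted p = 4.02e-06). Within the *HES* family, *HES6* fell by 1.49 on the log2 scale (adjusted p = 2.44e-04), against the rises of *HES2* and *HES4*. In the corepressor list, *TLE1*, *TLE3* and *TLE4* fell by 0.96, 1.07 and 1.23 on the log2 scale while *TLE2* rose. *NUMBL*, the close relative of *NUMB*, fell by 1.17 on the log2 scale (adjusted p = 0.00149).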
